A study of Mus musculus with 12 samples.

Results

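The genes described here are 10 genes of the circadian clock: Arntl, Clock, Per1, Per2, Per3, Cry1, Cry2, Nr1d1, Nr1d2 and Dbp. They were taken by gene symbol from the 54447 features of a count table of mouse fibroblasts. All 10 had a row, and all 10 passed the filter on low counts, which kept 13608 genes. The purpose was to see whether the clock genes stood at different levels between libraries that carry different suffixes, and between the groups.

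The cells were labelled mouse embryonic fibroblasts, and the methods of the study name the established fibroblast line NIH3T3. They carried N-VEGF, the N-terminal part of the long form of the vascular endothelial growth factor protein, or NLS-N-VEGF, in which a nuclear localization sequence is joined to the same part. Both sequences stood behind a Tet-on promoter in a lentiviral vector, which doxycycline (dox) switches on, and the transduced cells were used as puromycin-selected populations. The 4 groups were NLS-N-VEGF cells without dox, NLS-N-VEGF cells with dox, N-VEGF cells without dox and N-VEGF cells with dox, with 3 libraries each. The cells without dox carried the construct as well, so no group was free of the vector.

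The labels give each library a number and a suffix. Every group had a library 1 and a library 2 that shared one suffix, called a here, and a library 2 with another, called b. The labels do not say what the suffix stands for. Neither the labels nor the methods give an hour of collection or a step, such as a serum shock or dexamethasone, that would set the clocks of the cells to a common phase.

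The mammalian clock is a loop of transcription and feedback that runs in most cells, cultured fibroblasts included. CLOCK and BMAL1, the protein of Arntl, bind E-boxes together and activate the Per and Cry genes, Nr1d1, Nr1d2 and Dbp. PER and CRY proteins return to the nucleus and repress CLOCK and BMAL1, and so form the negative arm. The REV-ERB proteins, encoded by Nr1d1 and Nr1d2, repress Arntl through ROR elements, which the ROR proteins activate. DBP is a PAR bZIP factor that activates genes with D-boxes, and NFIL3 represses through the same element. In a culture whose cells keep different phases, the oscillations of single cells average out in bulk RNA, while serum or glucocorticoids bring the cells into step and induce Per1 at once.

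Promoter sequences were searched for the letters of regulatory elements, and short stretches with a match are shown here. They come from RefSeq windows of build GRCm38.p6 that reach from 250 bases before to 50 bases after a start site. For the members, 9 of 10 genes had a window, with 13 windows in all, and Per2 had none. Each stretch is written 5′ to 3′ on the strand of the gene, and capitals mark the element. The E-box CACGTG, to which CLOCK and BMAL1 bind, was found in windows of Cry1 and Per1. The match of Cry1 was at chr10:85185098-85185125 (minus strand), 60 bases before the start. That of Per1 was at chr11:69098772-69098799 (plus strand), 166 bases before the start of its window. Per1 spans chr11:69095217-69109960, so this start and the match lie inside the gene and not at its annotated 5′ end.
Cry1, E-box: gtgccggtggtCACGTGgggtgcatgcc
Per1, E-box: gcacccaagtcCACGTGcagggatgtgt
The D-box was searched as TTATGTAA or TTATGCAA. It was found in Per1 at chr11:69098915-69098942 (plus strand), 24 bases before the same start within the gene. In Per3 it was found at chr4:151044806-151044833 and chr4:151044853-151044880 (minus strand), 158 and 205 bases before the start.
Per1, D-box: gggcctggcaTTATGCAAcccgcctccc
Per3, D-box: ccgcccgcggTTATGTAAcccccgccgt
Per3, D-box: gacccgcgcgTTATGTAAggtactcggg
The core of the ROR element, TAGGTCA, was found in Arntl at chr7:113207531-113207558 (plus strand), just after the start. Among clock genes that are no members, Nfil3 held it on the other strand at chr13:52981034-52981061 (minus strand), 12 bases before the start.
Arntl, ROR element core: aggcagaaagTAGGTCAgggacggaggt
Nfil3, ROR element core: cgctcggaacTGACCTActaacacacat
All motifs were searched on both strands. Of the 32851 windows of all genes, 7.15% held the E-box, 1.66% a D-box and 2.61% the ROR core, against 2, 2 and 1 of the 13 windows of members. The cAMP response element TGACGTCA was in 1.79% of all windows and in 0 of the 13. Hlf, a clock gene that is no member, held it 9 bases before the start. A match says only that the letters are there.

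The libraries held between 13549331 and 18982127 counts, and 3 counts, the smallest level taken as measurable, were 0.158 to 0.221 counts per 1000000 counts of a library (CPM). Library 1 of N-VEGF cells without dox stood apart, with 19976 genes detected against 20947 to 22889 in the other libraries, and had the lowest Clock, Per3 and Nr1d2 of all 12. Suffix effects of these 3 genes are given with and without it. Of 10 fibroblast markers, 9 stood far above 1 CPM in every library, and the 10 summed to 11222 to 14170 CPM in libraries with suffix a and 11563 to 13147 CPM in those with suffix b. Lum, the exception, lay at 0 to 0.0628 CPM with suffix a and 0.335 to 1.86 CPM with suffix b. Behind the like sums, 8 of the 10 were called between the suffixes in edgeR (adjusted p under 0.05), 4 higher (Lum, Thy1, S100a4 and Vim) and 4 lower (Pdgfra, Col3a1, Fn1 and Pdgfrb), with log2 fold changes of -1.32 for Pdgfra, -1.22 for Col3a1, -0.55 for Fn1 and 0.53 for Thy1. Their part in the difference of Nr1d1 was not tested. The 6 epithelial markers summed to 2.03 to 3.32 and 3.26 to 3.79 CPM in the same order, with Epcam, Krt5, Krt8 and Krt18 under 1 CPM everywhere. The 4 endothelial markers summed to 2.39 to 4.49 and 3.01 to 4.0 CPM, with Kdr and Tek under 1 CPM everywhere. The 4 leukocyte markers summed to 2.44 to 3.58 and 5.09 to 5.62 CPM, and Ptprc, Adgre1 and Cd3e stayed under 1 CPM everywhere, which leaves Cd68, a lysosomal protein that fibroblasts also carry. Ptprc lay at 0 to 0.0736 CPM with suffix a and 0.067 to 0.291 CPM with suffix b, close to the smallest level taken as measurable. The part of the leukocyte sum, higher with suffix b, in the results below was not tested.

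Per kilobase of exon, all 10 clock genes lay at low to moderate levels. The means over the 12 libraries, as CPM divided by the exon length in kilobases (RPKM), were 13.6 ± 2.90 for Nr1d1, 12.7 ± 1.29 for Nr1d2, 7.51 ± 0.54 for Cry1, 6.15 ± 0.80 for Clock and 5.03 ± 0.47 for Per1 (SD, n = 12). Below these were Cry2 at 3.73 ± 0.23, Per3 at 2.80 ± 0.39, Per2 at 2.67 ± 0.32, Arntl at 2.35 ± 0.19 and Dbp at 2.33 ± 0.48 RPKM (SD, n = 12). Both REV-ERB genes were thus above the rest, and their ranges did not overlap that of Cry1. Apart from this step and the step from Per1 to Cry2, the ranges of neighbours in this order overlapped. Over the 12 libraries the highest CPM of a gene exceeded its lowest by 1.90 times for Dbp, 1.73 for Nr1d1, 1.66 for Per3, 1.55 for Clock, 1.52 for Nr1d2 and 1.47 for Per2. The factor was 1.28 for Per1 and for Cry1, 1.27 for Arntl and 1.19 for Cry2.

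**Figure D1:**
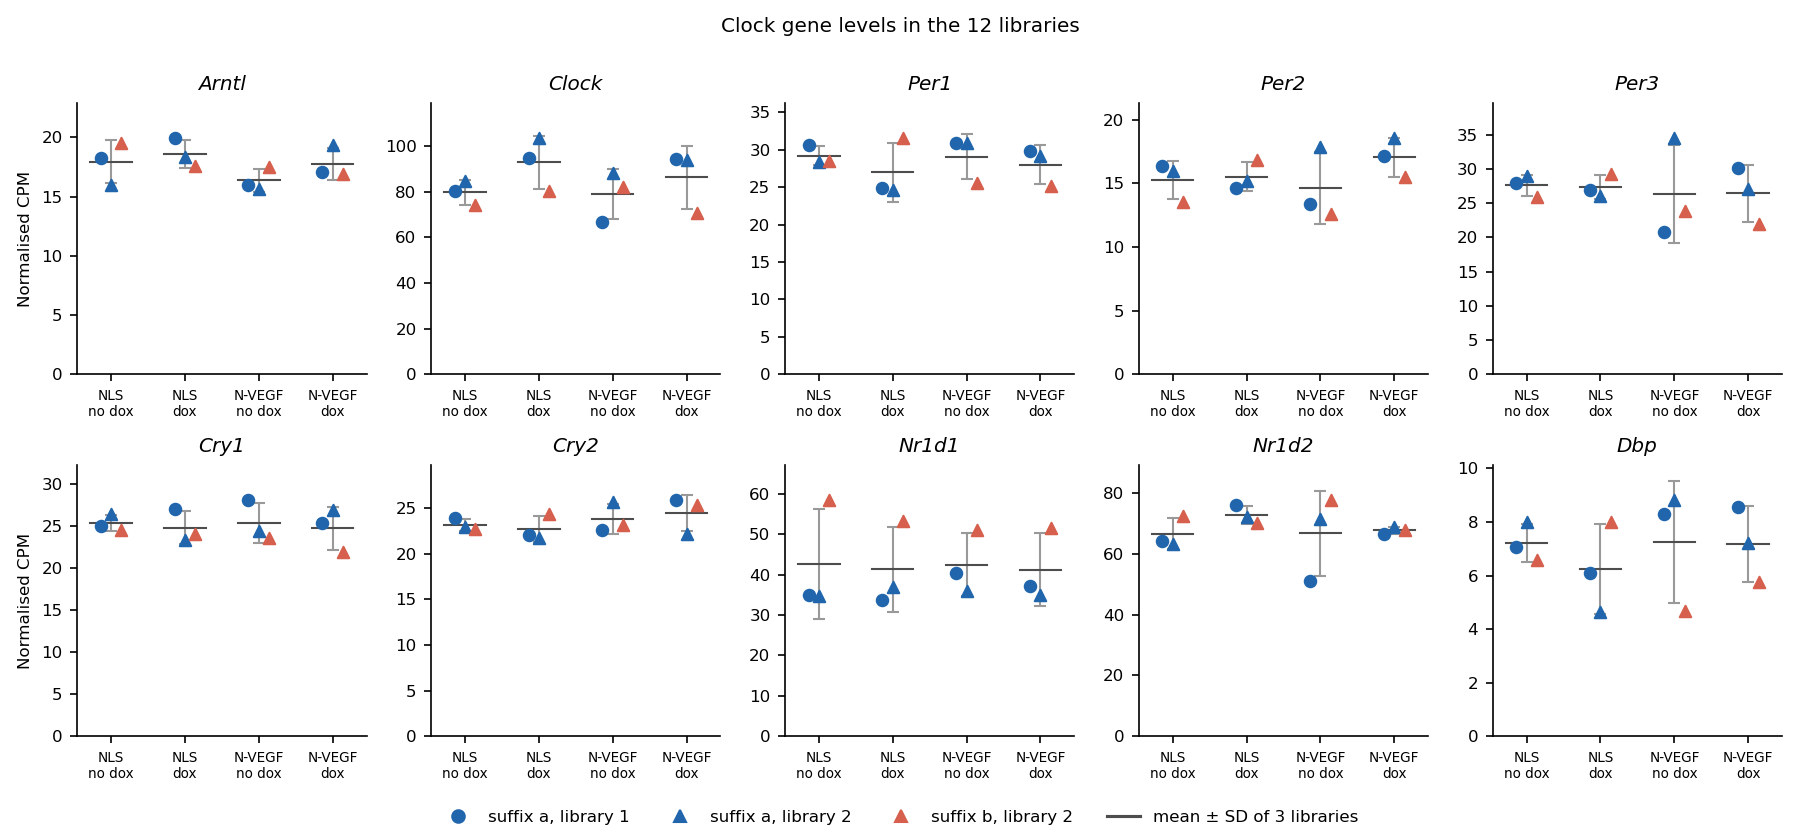
Normalised CPM (y axis, linear, from 0) of the 10 clock genes in the 4 groups (x axis), with 1 point per library and the mean ± SD of 3 libraries per group. Blue points are libraries with suffix a (circle, library 1; triangle, library 2) and red triangles library 2 with suffix b. Only for Nr1d1 do all 4 red points (51.1 to 58.4 CPM) lie above all 8 blue points (33.7 to 40.4 CPM).

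Between the suffixes, Nr1d1 rose and the other 9 members did not pass the test, although Clock passed with the replicate block described below. Nr1d1 was 1.48-fold higher in libraries with suffix b (95% interval 1.36 to 1.62), while its target Arntl differed by 1.02-fold (0.91 to 1.14). A link between these values was not tested. With group in the model, edgeR's quasi-likelihood test called 1 of 10 members, against 45.6% of all genes tested (22.2% higher and 23.5% lower). The groups of libraries did not overlap for 1 of 10 members, against 28% of all genes. At an unadjusted p under 0.05 there were 2 members, Nr1d1 and Clock, against 53.0% of all genes. The median log2 fold change was -0.09 over the members and 0.01 over all genes, and the median size of the log2 fold change was 0.14 against 0.21. Every group held both suffixes, so the suffix was balanced over the groups. In bulk RNA, fewer cells with a transcript and less of it per cell cannot be told apart.

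**Figure D2:**
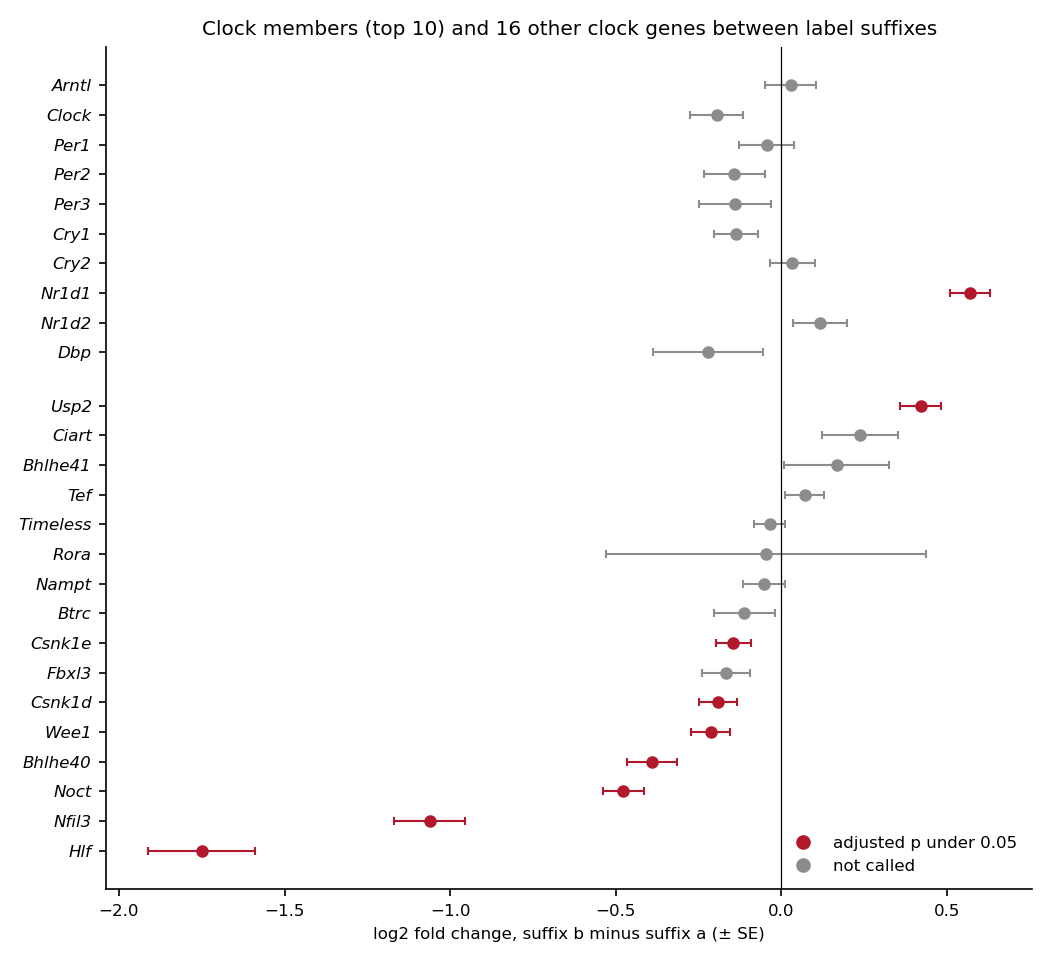
Log2 fold change between the suffixes (x axis, b minus a, with SE) for the 10 members (upper block) and the 16 other clock genes tested (lower block), from all 12 libraries with group in the model. Red marks an edgeR adjusted p under 0.05. Nr1d1 at 0.57 is the only red member, while Hlf at -1.75 and Nfil3 at -1.06 lie farthest from 0 among the other clock genes.

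In the positive arm, Arntl (ENSMUSG00000055116, GRCm38 chr7:113207465-113314126) stayed within a narrow band. In NLS-N-VEGF cells it had 18.2, 16.0 and 19.6 CPM uninduced (no dox) and 19.9, 18.3 and 17.6 CPM induced (dox), given here and below as library 1 and library 2 with suffix a, then library 2 with suffix b. The N-VEGF libraries held 16.0, 15.6 and 17.5 CPM uninduced and 17.1, 19.3 and 16.9 CPM induced. The 2 libraries with suffix b and no dox were the highest of their groups, and those with dox the lowest of theirs. The log2 fold change between the suffixes was 0.03 (SE 0.08, edgeR adjusted p 0.787), and its sign turned with the choice of libraries: it was -0.11 in the libraries with dox alone. The difference of the suffix effect between dox and no dox was -0.28. This value was not called in edgeR and rests on 1 library with suffix b per group.

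Clock (ENSMUSG00000029238, chr5:76209868-76304792), whose protein is the partner of BMAL1, was the member nearest to the threshold after Nr1d1. Its levels in NLS-N-VEGF cells were 80.1, 84.7 and 73.9 CPM uninduced and 94.8, 103 and 80.3 CPM induced. N-VEGF libraries ran at 66.8, 88.0 and 82.0 CPM uninduced and 94.3, 94.0 and 70.4 CPM induced. The library with suffix b was the lowest of its group in 3 of 4 groups. The exception was N-VEGF cells without dox, where library 1, the library that stood apart, was lowest. The log2 fold change between the suffixes was -0.20 (SE 0.08, edgeR adjusted p 0.0549). With number and suffix as a replicate block it was -0.19 (edgeR adjusted p 0.0427), so that 2 of 10 members passed, against 45.8% of all genes (22.5% higher and 23.3% lower). DESeq2 gave an adjusted p of 0.0492. Without library 1 of N-VEGF cells without dox the log2 fold change was -0.26 (edgeR adjusted p 0.000335, 51.6% of all genes called), and without the library of that group with suffix b it was -0.30 (edgeR adjusted p 0.007, 37.8% of all genes called). In the libraries with dox alone Clock fell by 0.35 on the log2 scale (edgeR adjusted p 0.000908, 36.9% of all genes called), while without dox the value was -0.03 (edgeR adjusted p 0.884, 22.3% called). The difference of these effects, fitted over all 12 libraries, was -0.32. This value was not called in edgeR and rests on 1 library with suffix b per group.

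The Per genes, which belong to the negative arm, did not pass the test between the suffixes. Per1 (ENSMUSG00000020893, chr11:69095217-69109960), an immediate early gene of the clock, had 30.7, 28.4 and 28.6 CPM uninduced and 24.9, 24.6 and 31.6 CPM induced in NLS-N-VEGF cells. For N-VEGF the levels were 30.9, 30.9 and 25.6 CPM uninduced and 29.8, 29.2 and 25.1 CPM induced. The library with suffix b was lowest in both groups of N-VEGF cells, and highest in NLS-N-VEGF cells with dox. Over all groups the log2 fold change was -0.04 (95% interval -0.22 to 0.13, edgeR adjusted p 0.675). The suffix difference was 0.40 higher in the NLS-N-VEGF population than in the other. This value was not called in edgeR and rests on 1 library with suffix b per group.

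Per2 (ENSMUSG00000055866, chr1:91415982-91459324), a core repressor whose loss disturbs the rhythm of mice, had 16.3, 16.0 and 13.6 CPM uninduced and 14.6, 15.2 and 16.8 CPM induced in NLS-N-VEGF cells. Among N-VEGF libraries it stood at 13.4, 17.9 and 12.6 CPM uninduced and 17.1, 18.6 and 15.5 CPM induced. In NLS-N-VEGF cells with dox the library with suffix b was the highest, and in the other groups it was the lowest. The log2 fold change between the suffixes was -0.14 (95% interval -0.34 to 0.05, edgeR adjusted p 0.219). Per3 (ENSMUSG00000028957, chr4:151003652-151044665), the PER paralog that the core loop can do without, had 27.9, 28.9 and 25.9 CPM uninduced and 26.9, 26.0 and 29.3 CPM induced in NLS-N-VEGF cells. The N-VEGF libraries held 20.8, 34.5 and 23.8 CPM uninduced and 30.2, 27.1 and 22.0 CPM induced. Its lowest and its highest level of the 12 were libraries 1 and 2 of the same group and suffix, the former being the library that stood apart. Without it the lowest was 22.0 CPM. The log2 fold change between the suffixes was -0.14 (95% interval -0.37 to 0.09, edgeR adjusted p 0.306). Without library 1 of N-VEGF cells without dox it was -0.20 (edgeR adjusted p 0.0372).

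Cry1 and Cry2, which encode the main repressors of CLOCK and BMAL1, were among the steadiest members. Cry1 (ENSMUSG00000020038, chr10:85131700-85185064) had 25.1, 26.5 and 24.6 CPM uninduced and 27.1, 23.4 and 24.0 CPM induced in NLS-N-VEGF cells. N-VEGF libraries ran at 28.1, 24.5 and 23.7 CPM uninduced and 25.4, 27.0 and 21.9 CPM induced. The suffix difference had the same sign in 4 of 4 groups, from -0.26 to -0.07 on the log2 scale, but the fitted value of -0.14 did not pass (95% interval -0.28 to 0.00, edgeR adjusted p 0.102). Cry2 (ENSMUSG00000068742, chr2:92403646-92434043) had 23.9, 22.9 and 22.7 CPM uninduced and 22.0, 21.8 and 24.3 CPM induced in NLS-N-VEGF cells. For N-VEGF the levels were 22.6, 25.7 and 23.2 CPM uninduced and 25.9, 22.2 and 25.4 CPM induced. The suffixes overlapped. Cry2 had a log2 fold change of 0.03 between the suffixes (95% interval -0.11 to 0.17, edgeR adjusted p 0.708). The antisense gene D930015M05Rik covers 4.67% of its exon bases.

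The REV-ERB pair parted between the suffixes. Nr1d1 (ENSMUSG00000020889, chr11:98767932-98775333) had 35.0, 34.8 and 58.4 CPM uninduced and 33.7, 37.0 and 53.3 CPM induced in NLS-N-VEGF cells. Among N-VEGF libraries it stood at 40.4, 36.0 and 51.1 CPM uninduced and 37.1, 35.0 and 51.6 CPM induced. The library with suffix b was the highest of its group in 4 of 4 groups, with log2 differences from the mean of the others of 0.74, 0.59, 0.42 and 0.52 in the order given. The fit gave 0.57 on the log2 scale (SE 0.06, edgeR adjusted p 2.49e-06). It lay between 0.50 and 0.61 when each of the 12 libraries was left out in turn, and was called in all 12 of these fits. It was 0.59 without dox (edgeR adjusted p 0.00453) and 0.56 with dox (edgeR adjusted p 4.98e-05).

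The library kit does not mark the strand, and 8.55% of the exon bases of Nr1d1 are shared with the antisense gene Thra, which encodes a thyroid hormone receptor. Thra moved the opposite way, with a log2 fold change of -0.36 between the suffixes (SE 0.08, edgeR adjusted p 0.00164). Nr1d2 (ENSMUSG00000021775, chr14:18204054-18239127), which encodes the other REV-ERB, had 64.3, 63.2 and 72.5 CPM uninduced and 75.9, 72.0 and 70.3 CPM induced in NLS-N-VEGF cells. The N-VEGF libraries held 50.9, 71.5 and 77.6 CPM uninduced and 66.6, 68.8 and 67.9 CPM induced. The 2 libraries with suffix b and no dox were the highest of their groups, and those with dox were not. Between the suffixes its log2 fold change was 0.12 (95% interval -0.05 to 0.29, edgeR adjusted p 0.247), and 0.05 without library 1 of N-VEGF cells without dox (edgeR adjusted p 0.385). Whether the suffix effects of Nr1d1 and Nr1d2 differ was not tested, but their 95% intervals, 0.44 to 0.70 for Nr1d1, did not overlap.

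Dbp (ENSMUSG00000059824, chr7:45705088-45710203), an output gene of the clock and one of its most strongly cycling transcripts in many tissues, was the lowest member in CPM and the most variable. In NLS-N-VEGF cells it had 7.07, 7.98 and 6.57 CPM uninduced and 6.11, 4.64 and 7.99 CPM induced. N-VEGF libraries ran at 8.30, 8.81 and 4.66 CPM uninduced and 8.56, 7.21 and 5.76 CPM induced, from 63 to 143 counts per library over all groups. As for Per2, the library with suffix b was the highest of its group in NLS-N-VEGF cells with dox and the lowest in the other groups. The log2 fold change between the suffixes was -0.22 (SE 0.17, edgeR adjusted p 0.29), which leaves a fold of 0.673 to 1.09 in its 95% interval. The suffix difference was 0.84 higher in the NLS-N-VEGF population than in the other. As for Per1, this value was not called in edgeR and rests on 1 library with suffix b per group. Of the exon bases of Dbp, 18% are shared with the antisense gene Sphk2, which fell by 0.30 between the suffixes on the log2 scale (edgeR adjusted p 0.014).

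**Figure D3:**
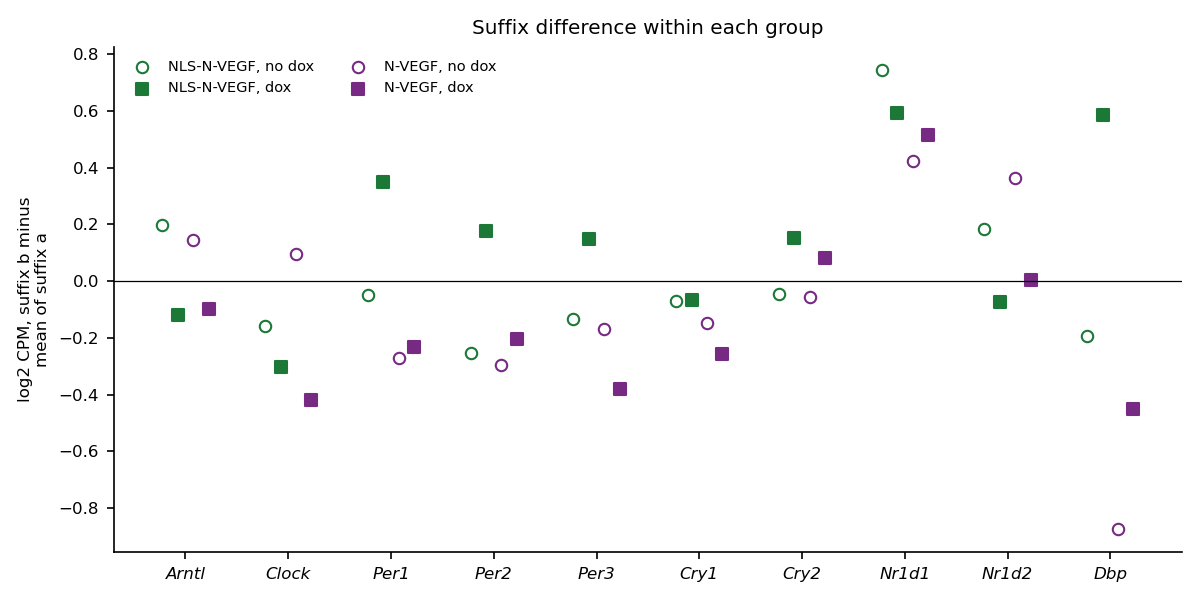
Log2 difference in CPM between the library with suffix b and the mean of both libraries with suffix a (y axis), for each clock gene (x axis) and group; 1 point per group, no replicate. Nr1d1 lies above 0 in 4 of 4 groups (0.42 to 0.74), Cry1 below 0 in 4 of 4, and Dbp spreads from -0.87 to 0.59.

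A single library weighed on the Per genes and Dbp. Library 2 with suffix b of NLS-N-VEGF cells with dox had the highest Per1 of all 12. Without it, 4 of 10 members were called between the suffixes, against 42.9% of all genes: Nr1d1, Per1 at -0.19 (edgeR adjusted p 0.0353), Per2 at -0.26 (edgeR adjusted p 0.0368) and Dbp at -0.51 (edgeR adjusted p 0.0104). Formal tests of whether the suffix difference depends on the population called 0 of 10 members in edgeR, against 0.0955% of all genes, with 2 members at an unadjusted p under 0.05 (Per1 and Dbp) against 9.13% of all genes, and DESeq2 called 0 members and 33 of all genes. Whether the suffix difference depends on dox was also called for 0 of 10 members in edgeR, against 0% of all genes. At an unadjusted p under 0.05 in edgeR there were 2 members (Clock and Dbp), against 8.39% of all genes (1142). DESeq2 called 7 of all genes for this dependence. Among the members it gave an adjusted p only to Clock, Nr1d1 and Nr1d2, and called 0 of these. Its own filter left the other members, Dbp included, without an adjusted p. Each group held 1 library with suffix b, so the spread in these tests came from the libraries with suffix a alone. Without library 1 of N-VEGF cells without dox the dependence on the population passed for Per1, Per3 and Dbp, against 3.01% of all genes. Without library 2 with suffix a of that group it passed for Per1, Nr1d2 and Dbp, against 13% of all genes, and the dependence on dox passed for Clock and Nr1d2, against 16% of all genes.

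The balance of the positive and the negative arm had the same mean with both suffixes, but its shift had opposite signs without and with dox. For each library, the log2 deviations from the mean of the 12 libraries were averaged over Arntl and Clock (positive arm) and over the Per and Cry genes (negative arm). The negative arm minus the positive arm was 0.00 ± 0.18 (SD, n = 8, from -0.28 to 0.21) with suffix a and 0.00 ± 0.10 (SD, n = 4, from -0.12 to 0.11) with suffix b. The lowest values, -0.23 and -0.28, were both of suffix a in NLS-N-VEGF cells with dox, and the highest, 0.17 and 0.21, both of that suffix in N-VEGF cells without dox. Without library 1 of N-VEGF cells without dox the mean of suffix a was -0.02 ± 0.18 (SD, n = 7). Within groups, suffix b minus the mean of suffix a was -0.13 in NLS-N-VEGF and -0.31 in N-VEGF cells without dox, and 0.36 and 0.06 with dox, so that the equal means over the groups hold shifts that cancel. This dependence on dox rests on 1 library of suffix b per group and was not tested.

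As a reference, libraries 1 and 2 of suffix a were compared across the groups. None of the 10 members was called (0 of 10 in edgeR and in DESeq2, 0 at an unadjusted p under 0.05 in edgeR), against 0% of all genes, of which 490 had an unadjusted p under 0.05 in edgeR and DESeq2 called 0. The log2 fold changes of the members lay between -0.06 and 0.14. Nr1d1 differed by -0.03 there (95% interval -0.19 to 0.12).

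Dox, and with it the induced proteins, left the clock genes without a called difference. In NLS-N-VEGF cells 0 of 10 members were called with dox against no dox, against 0.022% of all genes, and the log2 fold changes lay between -0.20 (Dbp) and 0.22 (Clock), with a median of -0.02. In N-VEGF cells 0 of 10 were called, against 0.0367% of all genes, and the values lay between -0.05 (Per1) and 0.22 (Per2), with a median of 0.01. With the replicate block the counts stayed at 0 of 10, against 0.125% and 0.11% of all genes. No member had an unadjusted p under 0.05 without the block in either population, and DESeq2 called 0. With the block there was 1, Clock in NLS-N-VEGF cells, at a log2 fold change of 0.22 (unadjusted p 0.041, edgeR adjusted p 0.671). Its log2 ratio of dox to no dox was 0.24, 0.29 and 0.12 in the same-labelled pairs of NLS-N-VEGF cells and 0.50, 0.09 and -0.22 in those of N-VEGF cells, higher in 5 of 6. The ratio of 0.50 rests on the library that stood apart. These tests do not show that the levels were equal. The 95% intervals of the members without the block reached from -0.76 to 0.53 in NLS-N-VEGF cells and from -0.57 to 0.55 in N-VEGF cells. The widest were those of Dbp and Nr1d1, and with the block the interval of Nr1d1 narrowed most.

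**Figure D4:**
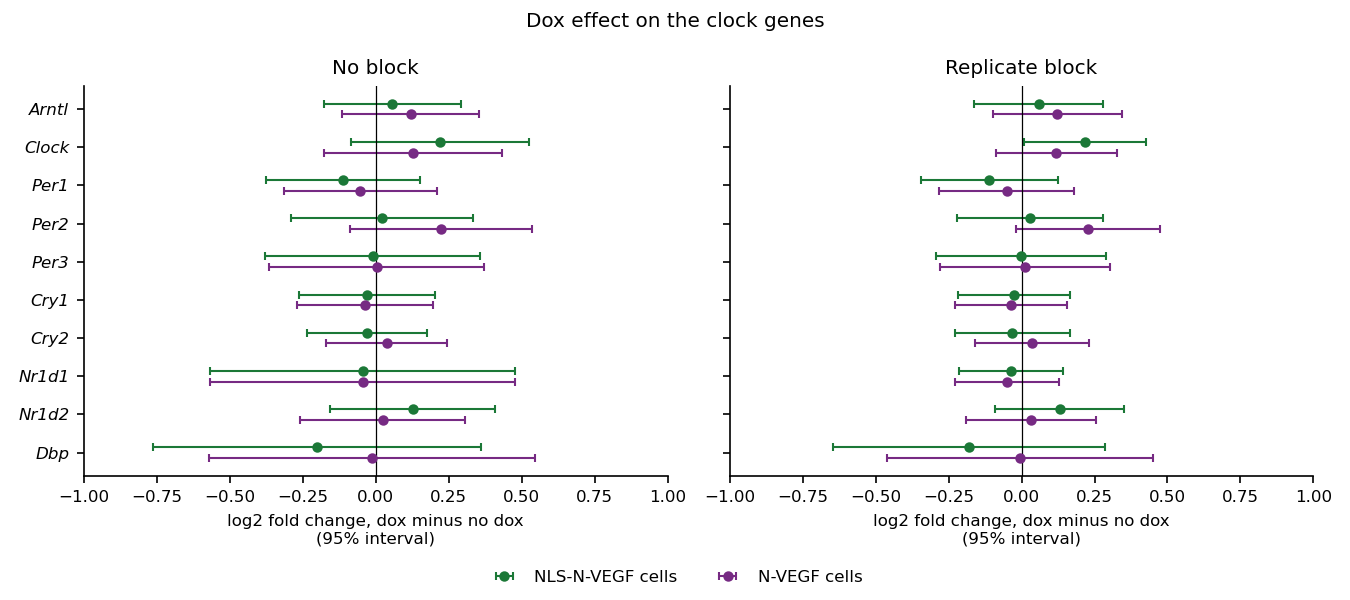
Log2 fold change of the clock genes with dox against no dox (x axis, with 95% intervals) in NLS-N-VEGF cells (green) and N-VEGF cells (purple), without a block (left) and with number and suffix as a replicate block (right). All intervals hold 0 except the blocked one of Clock in NLS-N-VEGF cells, and no member has an edgeR adjusted p under 0.05.

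The populations also did not differ in a called member. NLS-N-VEGF against N-VEGF cells gave 0 of 10 with dox, against 0% of all genes, and 0 of 10 without dox, against 0% of all genes. With the replicate block the former comparison again had 0 of 10, against 0.0147% of all genes, and the latter 0 of 10. The difference of the dox effects gave 0 of 10, against 0% of all genes. In these 3 comparisons 0 members had an unadjusted p under 0.05 in edgeR, against 160, 82 and 116 of all genes, and DESeq2 called 0 genes. The log2 fold changes of the members lay between -0.20 and 0.11 with dox and between -0.04 and 0.13 without dox.

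Among the other genes of the clock, the D-box factors Hlf and Nfil3 fell most between the suffixes. Of 20 such genes, 16 passed the low-count filter and 8 were called in edgeR, 1 higher and 7 lower, a share near the 45.6% of all genes, with a median log2 fold change of -0.13. The other 4 were too low to test. Hlf, a PAR bZIP factor like Dbp that acts on the same D-boxes, had 33.1, 35.8 and 11.4 CPM uninduced and 20.5, 16.3 and 9.35 CPM induced in NLS-N-VEGF cells. For N-VEGF the levels were 41.4, 40.7 and 10.2 CPM uninduced and 24.4, 25.1 and 3.88 CPM induced. The 4 libraries with suffix b were the lowest 4 of 12, and Hlf fell by 1.75 on the log2 scale (SE 0.16, edgeR adjusted p 7.14e-07).

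Nfil3, which represses through D-boxes and whose promoter holds the ROR core shown above, had 33.7, 31.1 and 16.3 CPM uninduced and 32.9, 27.2 and 16.3 CPM induced in NLS-N-VEGF cells. Among N-VEGF libraries it stood at 41.2, 29.9 and 12.8 CPM uninduced and 26.6, 28.2 and 14.6 CPM induced. Here too the suffixes did not overlap, and Nfil3 fell by 1.06 (SE 0.11, edgeR adjusted p 1.56e-06). Arntl, with the same core in its window, differed by 0.03. Whether the core has a part in either value was not tested. Noct, which encodes Nocturnin, a relative of deadenylases, fell by 0.48 (edgeR adjusted p 1.62e-05), and Bhlhe40, a repressor of E-box genes also known as Dec1, fell by 0.39 (edgeR adjusted p 0.000611). Usp2, a deubiquitinase with rhythmic expression, rose by 0.42 (edgeR adjusted p 5.15e-05). The remaining 3 called were Wee1, Csnk1d and Csnk1e, at -0.21, -0.19 and -0.15, the latter pair encoding the kinases that mark PER proteins for breakdown. Tef, the PAR bZIP factor nearest to Dbp and Hlf in function, was at 0.07 (edgeR adjusted p 0.337). With dox against no dox, 0 of the 16 were called in either population by edgeR, with and without the block, or by DESeq2. At an unadjusted p under 0.05 there were 0 without the block, and with it 1 in NLS-N-VEGF cells (Hlf), against 7.27% of all genes, and 4 in N-VEGF cells (Hlf, Ciart, Bhlhe40 and Wee1), against 5.40%.

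In Hlf, both populations were also lower with dox in every same-labelled pair, chosen here after its values were seen. The log2 fold change with the replicate block was -0.72 in NLS-N-VEGF cells (unadjusted p 0.00176, edgeR adjusted p 0.248) and -0.82 in N-VEGF cells (unadjusted p 0.00044, edgeR adjusted p 0.171), so neither passed. The difference between the populations was 0.10 (SE 0.27) and was not called.

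Genes that respond to serum and to glucocorticoids, the signals that reset fibroblast clocks, were called in both directions between the suffixes, among 45.6% of all genes called (22.2% higher and 23.5% lower). Of 15 serum-responsive genes, 10 were called, 4 higher and 6 lower, with a median of -0.15. Higher were Ctgf at 1.08, Egr3 at 0.52, Fosl1 at 0.38 and Fosb at 0.31. The largest falls were those of Atf3 at -1.61, Egr2 at -0.84, Ier2 at -0.81 and Egr1 at -0.42. These named genes had edgeR adjusted p from 3.39e-07 to 0.0439. Atf3 was low, at 1.03 to 1.89 CPM with suffix a and 0.414 to 0.67 CPM with suffix b. Among the named genes, the ranges of the suffixes overlapped for Fosb, Egr2 and Egr1. Egr1 lay at 69.8 to 258 CPM with suffix a and 101 to 193 CPM with suffix b. Of 10 glucocorticoid-responsive genes, 8 were tested and 4 called, Sgk1 higher at 0.23 and Klf9, Cebpd and Fkbp5 lower at -0.68, -0.52 and -0.32, with a median of -0.05. The latter count is near the share over all genes. Per1, which both signals induce, differed by -0.04 between the same libraries. Without library 2 with suffix b of NLS-N-VEGF cells with dox, this value was -0.19 and was called, among 42.9% of all genes. The part of these genes in the difference of Nr1d1 was not tested.

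Over the 12 libraries, the genes whose log2 CPM was most like that of Arntl, among 9943 genes with at least 5 CPM, were Prmt3, an arginine methyltransferase, Pi4k2b, a lipid kinase, and Arhgap42, with Pearson's r of 0.86, 0.84 and 0.79. For Dbp they were Trem2, a receptor best known from myeloid cells, Parp10, an ADP-ribosyltransferase, and C1ra, a complement protease, with r of 0.96, 0.92 and 0.90. These are descriptions of the highest of many values over 12 libraries that share groups and suffixes. None of the 6 is a clock gene of the lists used here.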

How the data were processed

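RNA of fibroblasts was sequenced by the authors in 12 TruSeq libraries. Per the labels and the submitters' processing notes, reads were trimmed with Trim Galore and cutadapt 1.10, aligned to GRCm38 with TopHat2 2.1.0 and Bowtie2 2.2.6 and counted with HTSeq 0.6.1. The authors deposited raw counts per gene without normalization. The strand option of the counting and whether the libraries of a group came from separate cultures are not given in the sources used here, so p-values measure the spread between these libraries only.

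Counts were tested with edgeR 4.0.16 in R 4.3.3 (filterByExpr by group, TMM scaling, quasi-likelihood F test, two-sided, Benjamini-Hochberg over all 13608 genes tested, threshold 0.05). The suffix contrast had group and suffix in the model, the group contrasts 1 mean per group. The dependence of the suffix difference on dox or population was fitted with 1 mean per group and suffix (8 means, 4 residual degrees of freedom). With 1 library of suffix b per group, the residual spread of that fit came from the libraries with suffix a alone. SE and 95% intervals were derived from the F statistic. CPM used TMM-scaled library sizes, and RPKM the union of exons in GENCODE M21. Intervals cover the spread between these libraries as well as counting error, and floors cover counting error only. No molecular identifiers were counted. The edgeR code without the block was tested on simulated data, in which few genes changed and all shared the same spread.

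Number and suffix were used as the replicate block. Deviations from the group means correlated by 0.371 to 0.816 in 18 same-labelled pairs of libraries and by -0.24 on average in 36 other pairs. Deviations within a group cancel out, so the negative average follows from the positive correlations of the same-labelled pairs. The suffix alone could give these correlations. Pairing by number within suffix a was tested only as a difference between libraries 1 and 2 shared by the groups. In edgeR that comparison called 0 of 13608 genes, with 490 (3.60%) at an unadjusted p under 0.05. No libraries of a group agreed within sampling noise (chi-square per degree of freedom of at least 1.76).

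The members and lists were chosen with earlier results of these data known. All members are named. Other listed genes are named where called between suffixes, up to 4 on each side with a mean of at least 1 CPM. Members get statistics in group contrasts where the unadjusted p is under 0.05 with or without the block. For Arntl and Dbp the 3 genes with the highest correlation are named. Alternatives were RLE scaling, DESeq2 1.42.0, a filter of 1 count in any or 10 counts in every library, the block, suffix as a covariate, subsets of libraries and leaving out each library.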

Additional observations from a re-analysis of the deposited data

How the results depend on the processing

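The number of members called between the suffixes was 1, and 2 (Nr1d1 and Clock) under the replicate block, the DESeq2 test, no filter on low counts, libraries numbered 2 alone and libraries with dox alone. It ranged from 1 to 4 when each library was left out. The dependence of the suffix difference on dox gave 0 members and 0 to 2 on leaving out libraries, with 0 to 2234 genes over all settings. Under DESeq2 only Clock, Nr1d1 and Nr1d2 among the members had an adjusted p there. The dependence on the population gave 0, or 1 (Dbp) with no filter, and 0 to 3 on leaving out libraries, with 13 genes of all tested and up to 1807. The group comparisons and that of libraries 1 and 2 gave 0 members in every setting. Dox called 3 genes of all tested in NLS-N-VEGF cells (0 to 109 over all settings) and 5 in N-VEGF cells (1 to 36), and the block changed no other call of a member. The sign of the log2 fold change between the suffixes turned for Arntl with no filter (-0.00573) and with dox alone (-0.11), and with dox alone for Per1 (0.0762), Nr1d2 (-0.0296) and Dbp (0.0754), and for Cry2 without dox alone (-0.0449). On leaving out libraries Arntl ranged from -0.0371 to 0.0776, Per1 from -0.186 to 0.0257 and Cry2 from -0.00876 to 0.0596. Nr1d1 kept its call in every setting. Bhlhe40 no longer passed without dox alone (-0.38, edgeR adjusted p 0.0509). The cause of these changes was not tested. For the dependence on dox or population, leaving out a library with suffix b empties a group, so 8 of 12 leave-outs were run. No filter moved the median of all genes by -0.03. Dbp, with 63 to 143 counts per library, was the member that depth limits most.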
